A study of Mus musculus with 27 samples.

Results

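The comparison described here sets mouse cortex on the side of an arterial occlusion, 6 h into reperfusion, against cortex of sham-operated mice. Its members are the 3 ipsilateral 6 h libraries and the 3 sham libraries, chosen by the time and side in their labels, 6 libraries of the 27 in the series. All mice were wild-type C57BL6, 7 to 8 weeks old. For the ipsilateral 6 h group the right middle cerebral artery was closed with a suture for 35 min and then reopened, and cortex of the operated side was taken 6 h later. Sham mice were anesthetised and had their arteries exposed, and no filament was placed. Ipsilateral cortex at 3 h and 12 h of reperfusion and contralateral cortex at 6 h, from the same surgery, serve below as further groups of 3 libraries each. Each set of replicates was operated on its own day, and the labels do not give the hemisphere or the delay at which sham cortex was taken. Total RNA was depleted of ribosomal RNA and sequenced.

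When blood flow stops, neurons lose ATP, depolarise and release glutamate, and calcium enters through glutamate receptors and voltage-gated channels. After reflow, surviving cells meet misfolded protein, oxidants and inflammatory signals. Misfolded protein frees heat shock factor 1 to induce chaperones, stress kinases that phosphorylate the initiation factor eIF2alpha favour translation of the factor Atf4, and calcium and ERK signalling switch on immediate early genes such as Fos. Microglia, astrocytes and endothelium respond over the following hours with cytokines, adhesion molecules and proteases.

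Stretches of promoter from RefSeq on GRCm38.p6 are shown for 5 genes that rose: 3 chaperone genes, the integrated stress response gene Chac1, and Atf3. Each run is 200 bases, 5′ to 3′ on the gene's own strand. In the first 3, capitals mark a pair of heat shock element half-sites, GAANNTTC or TTCNNGAA. In the last 2, capitals mark TTGCATCA or its reverse complement TGATGCAA, a form of the amino acid response element.
Hspa1a: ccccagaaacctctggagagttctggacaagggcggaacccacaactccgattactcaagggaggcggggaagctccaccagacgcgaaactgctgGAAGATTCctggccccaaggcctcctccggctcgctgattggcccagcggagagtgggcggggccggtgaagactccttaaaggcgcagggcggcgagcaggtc
Hspb1: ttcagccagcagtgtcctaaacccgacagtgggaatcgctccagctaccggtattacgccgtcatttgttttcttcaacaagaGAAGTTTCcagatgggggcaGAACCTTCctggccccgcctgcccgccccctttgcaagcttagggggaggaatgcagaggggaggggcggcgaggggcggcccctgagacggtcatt
Hsph1: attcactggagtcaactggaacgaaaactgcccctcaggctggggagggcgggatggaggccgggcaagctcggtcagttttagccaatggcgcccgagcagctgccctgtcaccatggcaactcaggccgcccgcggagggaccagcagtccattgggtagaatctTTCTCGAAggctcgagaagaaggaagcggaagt
Chac1: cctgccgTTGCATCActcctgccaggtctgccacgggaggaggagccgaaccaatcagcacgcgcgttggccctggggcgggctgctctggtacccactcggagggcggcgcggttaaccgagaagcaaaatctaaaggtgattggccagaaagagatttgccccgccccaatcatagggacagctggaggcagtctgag
Atf3: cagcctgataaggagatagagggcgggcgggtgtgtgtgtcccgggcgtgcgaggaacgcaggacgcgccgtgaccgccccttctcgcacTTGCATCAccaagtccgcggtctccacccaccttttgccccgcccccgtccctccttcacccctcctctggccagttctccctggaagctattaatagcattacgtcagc
The stretches lie at chr17:34972157-34972356 on the minus strand (Hspa1a), chr5:135887719-135887918 on the plus strand (Hspb1), chr5:149636337-149636536 on the minus strand (Hsph1), chr2:119351042-119351241 on the plus strand (Chac1) and chr1:191183334-191183533 on the minus strand (Atf3). The Atf3 stretch precedes a start inside the longest annotated gene span. The chosen letters begin 104 bases before the start in Hspa1a, 117 and 97 before it in Hspb1, 33 before it in Hsph1, 193 before it in Chac1 and 110 before it in Atf3. A heat shock pair stood within 250 bases before the start of 14.5% of 27025 genes with a promoter in the table, and of 10 of the 20 listed chaperone genes that matched it. These were Dnaja1, Dnaja4, Dnajb4, Fkbp4, Hspa1a, Hspa1b, Hspb1, Hspd1, Hspe1 and Hsph1. The 8 letters of the response element stood in 0.918% of the same promoters and in those of Chac1, Herpud1 and Nupr1 among 20 matched stress response genes. Of the 7 matched stress response genes that rose, Chac1 alone held them, and Atf3 is not on that list. All 5 stretches shown hold marked letters, so they do not stand for their lists. Both searches covered both strands, neither motif contains the other, and a match describes letters only.

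Of 18087 genes tested, 1106 differed between ipsilateral 6 h and sham cortex at an adjusted p under 0.05, 6.11% of all tested. Of these, 909 rose, 5.03% of all tested, and 197 fell, 1.09%. The rises were larger than the falls: 449 of the 909 rose by 2-fold or more, and 17 of the 197 fell by 2-fold or more. The median log2 fold change was 0.99 among the rises, -0.51 among the falls and -0.01 over all tested genes. Genes were also split by their mean CPM (the read count scaled to library size) over all libraries of the series. Among the 1634 genes above 100 CPM, 16 rose and 16 fell, and among the 3925 below 1 CPM 168 rose and 6 fell. Rises outnumbered falls in the classes between: 204 and 24 of 3253 genes at 1 to 5 CPM, 306 and 77 of 4356 at 5 to 20 CPM, and 215 and 74 of 4919 at 20 to 100 CPM. A gene near 0 in sham cortex has little room to fall, and the filter kept genes with reads in a single group. The imbalance at low levels is therefore no result. By annotated class, 828 rises and 177 falls were among 15098 protein-coding genes, and 37 rises and 7 falls among 1235 long noncoding genes. The count depended on which libraries entered. Here and below libraries were left out singly, and a call said to be lost without several libraries was lost without each of them. The count was 639 without ipsilateral replicate 1, 423 without ipsilateral replicate 2, 1216 without ipsilateral replicate 3, and 553, 527 and 602 without sham replicates 1, 2 and 3 in turn. It was 1871 with surgery day as a block in a fit of these 6 libraries alone.

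**Figure D1:**
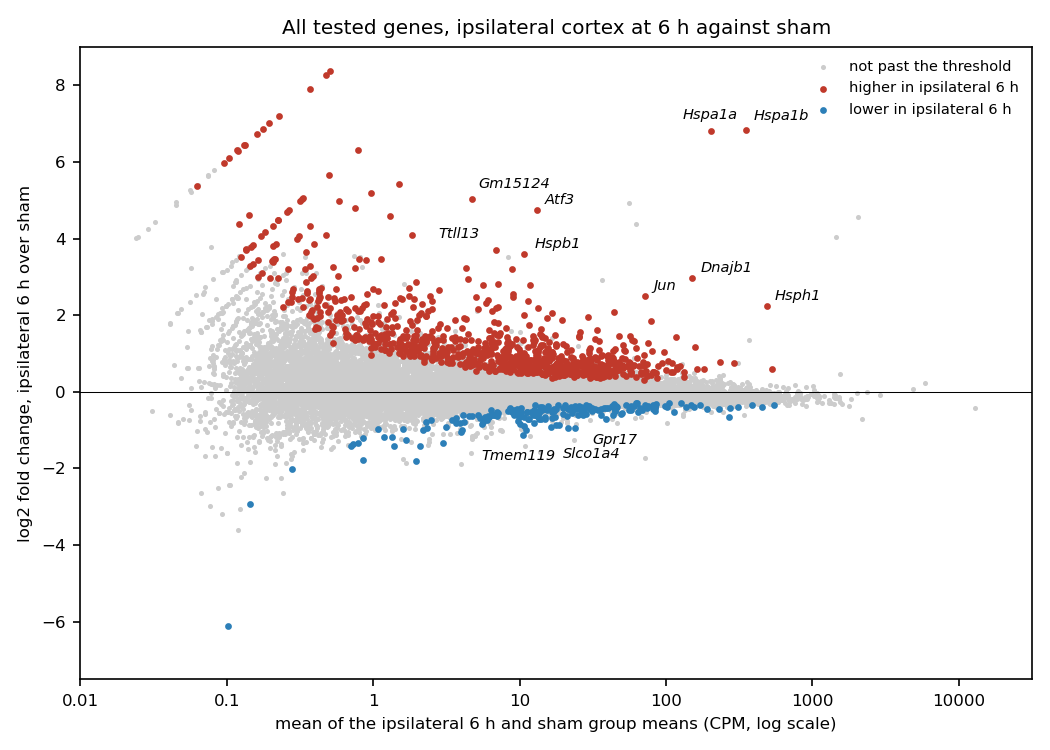
The log2 fold change of ipsilateral 6 h over sham cortex (vertical axis) is plotted against the mean level in CPM (horizontal axis, log scale), 1 point per tested gene. Coloured points passed an adjusted p under 0.05, and the 909 rises reach farther from 0 than the 197 falls. Genes near 0 in sham cortex have little room to fall.

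The libraries held 42583630, 37935348 and 44959072 counted reads in ipsilateral 6 h cortex and 43616527, 42291845 and 34226854 in sham cortex. Rank correlations over genes were 0.990 to 0.991 among ipsilateral libraries, 0.991 to 0.992 among sham libraries and 0.984 to 0.988 between the groups. Mitochondrial ribosomal RNA made up 27.8 to 30.6% of reads in ipsilateral 6 h cortex and 25.3 to 27.5% in sham cortex, without overlap, and the count of changed genes was also 1106 in a fit without the most abundant RNAs.

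The largest rises of named genes were those of the heat shock chaperones Hspa1b and Hspa1a. Of 24 tested chaperone genes 13 rose and none fell, against 5.03% rising over all tested genes, and the median log2 fold change of the list was 0.59. Hspa1b, an inducible cytosolic Hsp70 at chr17:34956436-34959238 on the minus strand, had 741, 794 and 546 CPM in ipsilateral 6 h cortex, against 6.44, 7.67 and 4.14 CPM in sham cortex. Its neighbour Hspa1a, at chr17:34969190-34972156 on the same strand, had 421, 449.7 and 342 CPM in ipsilateral 6 h cortex, against 3.03, 4.41 and 3.44 CPM in sham cortex. Values after ± are the SE of a log2 fold change and, beside a mean, the SD. Every ipsilateral library stood far above every sham library for both genes, 113-fold for Hspa1b (log2 fold change 6.83 ± 0.46, adjusted p = 5.9e-08) and 111-fold for Hspa1a (log2 fold change 6.80 ± 0.41, adjusted p = 9.55e-09). These copies share 247 of 250 promoter bases, and 58.8% of the 50-base windows of the Hspa1a transcript also occur in Hspa1b, so how their reads were divided is uncertain.

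Chaperones of other classes rose too, over a wide range of sham levels. Hspb1, a small heat shock protein that holds unfolded protein, had 21.6, 23.9 and 13.8 CPM in ipsilateral 6 h cortex, against 1.34, 2.14 and 1.4 CPM in sham cortex. Hspb1 rose by 3.60 ± 0.30 on the log2 scale (adjusted p = 5.69e-08). Dnajb1, an Hsp40 that feeds clients to Hsp70, had 315, 289 and 199.9 CPM in ipsilateral 6 h cortex, against 36.1, 35.5 and 31.8 CPM in sham cortex. Dnajb1 rose by 2.96 ± 0.25 on the log2 scale (adjusted p = 1.97e-07). Hsph1, the Hsp110 that recharges Hsp70 with nucleotide, had 889, 908 and 612 CPM in ipsilateral 6 h cortex, against 185, 168 and 159.7 CPM in sham cortex. Hsph1 rose by 2.23 ± 0.21 on the log2 scale (adjusted p = 6.04e-07). In each of these genes the groups were separate, and ipsilateral replicate 3 was the lowest of the 3 ipsilateral libraries. Bag3, which links Hsp70 to autophagy, had 10.5, 12.8 and 10.4 CPM in ipsilateral 6 h cortex, against 2.36, 2.87 and 2.13 CPM in sham cortex. Bag3 rose by 2.19 ± 0.26 on the log2 scale (adjusted p = 6.42e-06). The partner chaperonins of the mitochondrial matrix rose as well: Hspd1 had 131, 164 and 96.1 CPM in ipsilateral 6 h cortex, against 70.7, 63.6 and 54.8 CPM in sham cortex (log2 fold change 1.05 ± 0.17, adjusted p = 0.000317), and Hspe1 had 46.4, 55.2 and 40.5 CPM in ipsilateral 6 h cortex, against 18.7, 19.8 and 16.2 CPM in sham cortex (log2 fold change 1.37 ± 0.18, adjusted p = 2.16e-05). The abundant Hsp90 gene Hsp90aa1 rose less, with 677, 789 and 432 CPM in ipsilateral 6 h cortex, against 474, 389 and 394 CPM in sham cortex, which overlapped (log2 fold change 0.59 ± 0.17, adjusted p = 0.039). The Hsp90aa1 call was lost without ipsilateral replicates 1 and 2 and sham replicates 1, 2 and 3 (adjusted p = 0.0527 to 0.293) and in the 6 libraries alone, both without (0.164) and with (0.0533) surgery day as a block. The number of chaperones that rose was 10 to 13 whichever of the 6 libraries was left out.

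**Figure D2:**
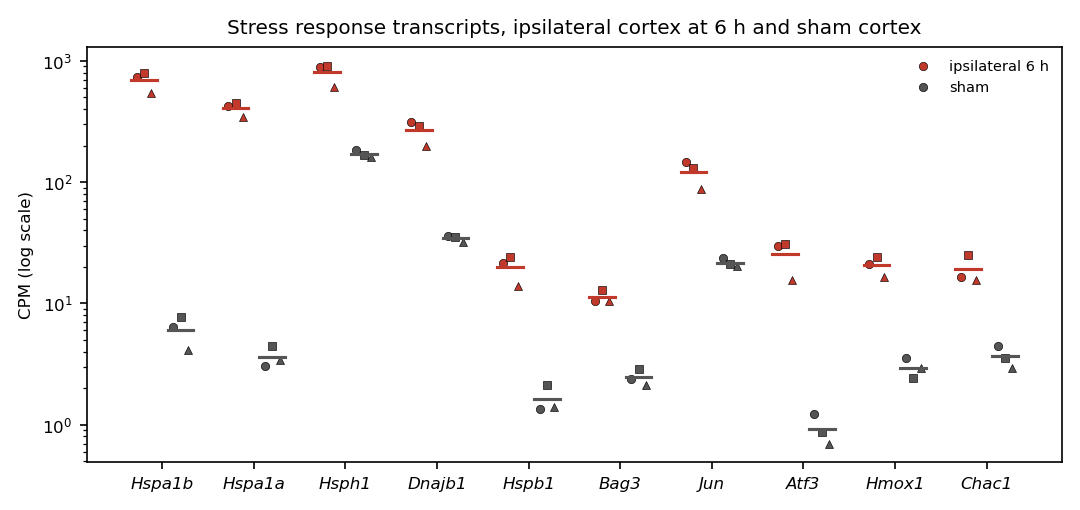
Level in CPM (vertical axis, log scale) of 10 stress genes in ipsilateral 6 h cortex (red, left of each pair) and sham cortex (grey, right). Circles, squares and triangles are replicates 1, 2 and 3 and bars are means: in all 10 genes the 3 ipsilateral libraries lie above the 3 sham libraries, a condition for naming several of them.

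The other large rises included regulators of transcription, calcium entry and proteolysis. Atf3, a stress-induced transcription factor of the ATF/CREB family, had 29.6, 30.7 and 15.6 CPM in ipsilateral 6 h cortex, against 1.23, 0.865 and 0.7 CPM in sham cortex. Atf3 rose by 4.75 ± 0.50 on the log2 scale (adjusted p = 8.39e-06). Rrad and Gem, small GTPases that inhibit voltage-gated calcium channels, both rose. Rrad had 7.58, 8.14 and 7.74 CPM in ipsilateral 6 h cortex, against 0.926, 0.637 and 0.933 CPM in sham cortex. Rrad rose by 3.23 ± 0.35 on the log2 scale (adjusted p = 9.78e-07). Gem had 9.45, 9.35 and 4.94 CPM in ipsilateral 6 h cortex, against 1.11, 1.09 and 0.846 CPM in sham cortex. Gem rose by 2.95 ± 0.38 on the log2 scale (adjusted p = 1.93e-05). Groups that do not overlap were a condition for naming the 14 largest rises and 10 largest falls, above and below. Their separation is therefore no result. Of all tested genes, 16.8% were higher and 14% lower in ipsilateral than in sham cortex without overlap. Hmox1, the inducible heme oxygenase, had 21.1, 24.1 and 16.4 CPM in ipsilateral 6 h cortex, against 3.52, 2.41 and 2.92 CPM in sham cortex. Hmox1 rose by 2.80 ± 0.32 on the log2 scale (adjusted p = 8.39e-06).

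Several of the strongest rises encode secreted or surface proteins. A2m, the protease inhibitor alpha-2-macroglobulin, had 10.4, 23.2 and 14.5 CPM in ipsilateral 6 h cortex, against 1.78, 1.64 and 1.78 CPM in sham cortex. A2m rose by 3.21 ± 0.58 on the log2 scale (adjusted p = 0.00227). Stc2, a secreted glycoprotein, averaged 12.5 ± 3.24 CPM in ipsilateral 6 h cortex and 1.78 ± 0.0773 CPM in sham cortex (SD, n = 3 each; log2 fold change 2.80 ± 0.41, adjusted p = 0.000193). Lrrc32, which holds latent TGF-beta at the cell surface, averaged 15.4 ± 2.56 CPM in ipsilateral 6 h cortex and 2.65 ± 0.488 CPM in sham cortex. Lrrc32 rose by 2.54 ± 0.35 on the log2 scale (adjusted p = 6.75e-05). The groups did not overlap in any of these, by the condition given above. The list of the 14 largest rises also held Ttll13, a tubulin polyglutamylase (log2 fold change 3.69 ± 0.36, adjusted p = 6.04e-07), and Gm15124, annotated as an antisense RNA at chr10:80371955-80373216 on the plus strand (log2 fold change 5.04 ± 0.55, adjusted p = 4.88e-06).

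Immediate early transcription factors, which cells switch on without new protein synthesis, rose in part. Of 26 tested, 11 rose and none fell, with a median log2 fold change of 0.77. Jun, a subunit of AP-1, had 146, 131 and 87.8 CPM in ipsilateral 6 h cortex, against 23.5, 21 and 20.3 CPM in sham cortex. Jun rose by 2.49 ± 0.27 on the log2 scale (adjusted p = 6.42e-06). Klf6, a zinc finger factor, had 108, 91.4 and 59.4 CPM in ipsilateral 6 h cortex, against 39.6, 39.6 and 37.5 CPM in sham cortex. Klf6 rose by 1.15 ± 0.16 on the log2 scale (adjusted p = 2.31e-05). Both were separate between the groups. Fos, the partner of Jun, had 168, 123 and 78.9 CPM in ipsilateral 6 h cortex, against 47.5, 25.8 and 28.4 CPM in sham cortex. Its groups were separate too, yet they varied more (log2 fold change 1.86 ± 0.54, adjusted p = 0.0467), and the call was lost without ipsilateral replicates 1 and 2 and sham replicates 1, 2 and 3 (adjusted p = 0.0721 to 0.173). The Fos call also failed without a filter on low counts (0.0568) and in a fit of the 6 libraries alone (0.0668). The list's count was 7 without ipsilateral replicate 1, 5 without ipsilateral replicate 2, 6 without sham replicate 1, 4 without sham replicate 2 and 5 without sham replicate 3. It was 17 with surgery day as a block in the 6 libraries alone.

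Feedback regulators that brake ERK signalling gave 8 rises and no fall among 17 tested, with a median of 0.56. Dusp2, a nuclear ERK phosphatase, had 5.52, 4.67 and 4.47 CPM in ipsilateral 6 h cortex, against 0.95, 0.819 and 0.525 CPM in sham cortex. Dusp2 rose by 2.66 ± 0.34 on the log2 scale (adjusted p = 1.17e-05). Dusp16, a phosphatase of the kinases JNK and p38, had 30.8, 31.4 and 21.2 CPM in ipsilateral 6 h cortex, against 13.7, 10.8 and 10.6 CPM in sham cortex. Dusp16 rose by 1.25 ± 0.17 on the log2 scale (adjusted p = 2.16e-05). Spry1, an inhibitor of receptor tyrosine kinase signalling, had 13.5, 14.5 and 11.4 CPM in ipsilateral 6 h cortex, against 6.62, 4.87 and 6.24 CPM in sham cortex. Spry1 rose by 1.16 ± 0.18 on the log2 scale (adjusted p = 0.000144). All 3 genes were higher in every ipsilateral library than in any sham library. The count was 4 without ipsilateral replicate 1, 4 without ipsilateral replicate 2, 4 without sham replicate 2 and 4 without sham replicate 3. It was 12 with surgery day as a block in the 6 libraries alone. Among 15 tested activity-regulated genes of synapses and secretion, 2 rose and none fell (median 0.20): Nptx2, a secreted pentraxin that gathers AMPA receptors, had 114, 121 and 86 CPM in ipsilateral 6 h cortex, against 43.4, 44 and 45 CPM in sham cortex (log2 fold change 1.28 ± 0.27, adjusted p = 0.00581), and Rgs2, which shortens G protein signals, had 42.3, 37.1 and 30.7 CPM in ipsilateral 6 h cortex, against 27.6, 23.2 and 22.8 CPM in sham cortex (log2 fold change 0.58 ± 0.13, adjusted p = 0.00555). The Rgs2 call was lost without ipsilateral replicate 1 (adjusted p = 0.0578). The count of this list was 1 without ipsilateral replicate 1 and 4 without ipsilateral replicate 3, beside 5.03% rising over all tested genes.

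Genes of the unfolded protein and integrated stress responses rose at 7 of 20 tested, and none fell (median 0.21). Chac1, a glutathione-degrading enzyme downstream of Atf4, had 16.6, 25.1 and 15.6 CPM in ipsilateral 6 h cortex, against 4.49, 3.55 and 2.92 CPM in sham cortex. Chac1 rose by 2.38 ± 0.28 on the log2 scale (adjusted p = 8.46e-06). Ppp1r15a, which recruits the phosphatase that reverses eIF2alpha phosphorylation, had 33.9, 32.5 and 25.2 CPM in ipsilateral 6 h cortex, against 8.64, 8.94 and 7.55 CPM in sham cortex. Ppp1r15a rose by 1.86 ± 0.23 on the log2 scale (adjusted p = 1.06e-05). Trib3, a pseudokinase of the same branch, had 0.775, 1.41 and 1.12 CPM in ipsilateral 6 h cortex, against 0.394, 0.182 and 0.175 CPM in sham cortex. Trib3 rose by 2.11 ± 0.45 on the log2 scale (adjusted p = 0.00372). No ipsilateral library fell within the sham range for these. Atf4 itself (log2 fold change 0.52 ± 0.16, adjusted p = 0.0534) and its target Ddit3 (0.62 ± 0.21, adjusted p = 0.0714) did not pass the test. The count was 4 without ipsilateral replicate 2, 4 without sham replicate 1, 3 without sham replicate 2 and 4 without sham replicate 3.

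Of 20 tested p53 targets and cell death genes 8 rose and none fell (median 0.49), and the count was 6 to 8 whichever library was left out. Gadd45b and Gadd45g, stress sensors that act on kinase cascades, rose, and so did Pmaip1, the BH3-only death factor Noxa. Gadd45b had 24.9, 33 and 22.9 CPM in ipsilateral 6 h cortex, against 8.59, 5.62 and 5.34 CPM in sham cortex. Gadd45b rose by 2.04 ± 0.26 on the log2 scale (adjusted p = 2.16e-05). Gadd45g had 22.3, 24.2 and 19.4 CPM in ipsilateral 6 h cortex, against 5.56, 4.92 and 3.88 CPM in sham cortex. Gadd45g rose by 2.19 ± 0.33 on the log2 scale (adjusted p = 0.000193). Pmaip1 had 7.7, 7.47 and 4.68 CPM in ipsilateral 6 h cortex, against 3.06, 2.3 and 1.57 CPM in sham cortex. Pmaip1 rose by 1.51 ± 0.28 on the log2 scale (adjusted p = 0.00113). The 2 groups were separate in each gene.

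Inflammatory genes rose while most stayed at low levels. In the list of cytokines, chemokines and NF-kappaB feedback genes 11 of 26 tested rose and none fell, and the median log2 fold change was 1.63, also with Il1rn and Cxcl2, which had no sham reads, set to their lower bounds. Nfkbiz, an atypical IkappaB that steers NF-kappaB targets, had 20.8, 23.8 and 16.8 CPM in ipsilateral 6 h cortex, against 7.8, 7.83 and 5.95 CPM in sham cortex. Nfkbiz rose by 1.50 ± 0.18 on the log2 scale (adjusted p = 6.42e-06). Nfkbid, another atypical IkappaB, changed by 1.66 ± 0.27 (adjusted p = 0.000232), and the NF-kappaB subunit Relb by 1.02 ± 0.18 (adjusted p = 0.000677), both on the log2 scale. The chemokine Cxcl1 averaged 2.49 ± 0.729 CPM in ipsilateral 6 h cortex and 0.101 ± 0.0937 CPM in sham cortex (SD, n = 3 each; log2 fold change 4.60 ± 0.82, adjusted p = 0.00112). Tnf averaged 0.471 ± 0.23 CPM in ipsilateral 6 h cortex and 0.0458 ± 0.0455 CPM in sham cortex. Tnf rose by 3.21 ± 0.72 on the log2 scale (adjusted p = 0.00621). The chemokine Ccl4 had 204 reads over the 3 ipsilateral libraries and 2 over the 3 sham libraries, a depth-adjusted ratio of 97.5 (95% interval 26.7 to 811). Il1rn, the interleukin-1 receptor antagonist, had 32 ipsilateral reads and none in sham, at least 10.2-fold higher when sham is set to a floor of 3 reads over the group. The interval and the floor allow for counting error alone. The interleukins Il1b (log2 fold change 0.97 ± 0.73, adjusted p = 0.488) and Il6 (1.61 ± 2.05, adjusted p = 0.711) did not pass. The list's count was 7 without ipsilateral replicate 3, 7 without sham replicate 1 and 7 without sham replicate 2. It was 16 with surgery day as a block in the 6 libraries alone.

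Proteases and their inhibitors gave 5 rises and no fall among 14 tested (median 1.05, also with Mmp3, which had no sham reads, set to its lower bound). Plat, the tissue plasminogen activator, had 70.0, 68 and 57.6 CPM in ipsilateral 6 h cortex, against 33.8, 34.3 and 37.4 CPM in sham cortex. Plat rose by 0.89 ± 0.15 on the log2 scale (adjusted p = 0.000325). Adamts1, a metalloprotease that cleaves proteoglycans, had 58.3, 53 and 29.3 CPM in ipsilateral 6 h cortex, against 12.8, 9.65 and 13.7 CPM in sham cortex (log2 fold change 1.96 ± 0.43, adjusted p = 0.00944), lost without sham replicate 2 (adjusted p = 0.0613). Both were separate between the groups, with ipsilateral replicate 3 lowest of its group. The count was 3 without ipsilateral replicate 2, 3 without ipsilateral replicate 3, 2 without sham replicate 1, 2 without sham replicate 2 and 2 without sham replicate 3. Of 17 interferon-stimulated genes tested 3 rose and none fell (median 0.02), of which Rsad2, an antiviral enzyme, had 2.18, 2.66 and 2.66 CPM in ipsilateral 6 h cortex, against 0.741, 0.728 and 0.991 CPM in sham cortex (log2 fold change 1.61 ± 0.37, adjusted p = 0.0078). The Rsad2 call was lost without sham replicate 2 (adjusted p = 0.0527), and the list's count was 1 without sham replicate 1 and 0 without sham replicate 2. Over all tested genes 5.03% rose and 1.09% fell. None of 4 leukocyte adhesion molecules of endothelium passed, and Icam1 was nearest (log2 fold change 1.30 ± 0.40, adjusted p = 0.053; 0.0425 without ipsilateral replicate 1; 0.00704 with surgery day as a block in the 6 libraries alone).

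Markers of infiltrating blood cells were scarce. The summed level of the neutrophil and monocyte list was 5.62, 5.09 and 5.91 CPM in ipsilateral 6 h cortex, against 5.95, 4.71 and 4.84 CPM in sham cortex, with overlap. The list median was 1.49 on the log2 scale, with 8 of 11 tested members higher and 3 lower in ipsilateral cortex. No rise passed the test. Chil3 had 22 ipsilateral and 2 sham reads (depth-adjusted ratio 10.5, interval 2.585 to 92.3). Cxcr2 had 16 and 2 (7.65, interval 1.8 to 68.6). These intervals allow for counting error alone. The single call was a fall, opposite in sign to the median. It was Csf3r, the receptor of granulocyte colony-stimulating factor, with 2.13, 1.7 and 1.73 CPM in ipsilateral 6 h cortex, against 2.76, 3.5 and 2.97 CPM in sham cortex (log2 fold change -0.73 ± 0.22, adjusted p = 0.0383). Csf3r made up a large part of the summed level, so that sum says little about the other members. The Csf3r call was lost without each of the 6 libraries in turn (adjusted p = 0.0538 to 0.177), and its adjusted p was 0.0617 with surgery day as a block in the 6 libraries alone. Summed red cell markers, a measure of blood left in the tissue, were 58.6, 62.2 and 70.0 CPM in ipsilateral 6 h cortex, against 91.8, 79.8 and 98.7 CPM in sham cortex, without overlap. None of the 5 passed in the joint fit, whereas Hbb-bs (adjusted p = 0.00395) and Hbb-bt (0.0217) fell in a fit of the 6 libraries alone.

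Reactive astrocyte genes rose at 6 of 22 tested, with none falling and a median log2 fold change of 1.29. Slc10a6, a transporter of sulfated steroids, had 2.54, 5.85 and 2.02 CPM in ipsilateral 6 h cortex, against 0.185, 0.182 and 0.233 CPM in sham cortex. Slc10a6 rose by 4.10 ± 0.57 on the log2 scale (adjusted p = 4.17e-05). Sphk1, which makes sphingosine-1-phosphate, had 7.46, 10.3 and 10.3 CPM in ipsilateral 6 h cortex, against 3.87, 2.25 and 3.06 CPM in sham cortex. Sphk1 rose by 1.61 ± 0.29 on the log2 scale (adjusted p = 0.00087). Osmr, the oncostatin M receptor, had 19.6, 27.9 and 14.7 CPM in ipsilateral 6 h cortex, against 6.97, 7.78 and 7.96 CPM in sham cortex. Osmr rose by 1.45 ± 0.32 on the log2 scale (adjusted p = 0.00851), a call lost without ipsilateral replicate 2 (adjusted p = 0.0671). In all 3 genes the groups were separate, and ipsilateral replicate 2 was high for Slc10a6 and Osmr. Gfap, the astrocyte intermediate filament, had 93.7, 153 and 138 CPM in ipsilateral 6 h cortex, against 63.5, 81.6 and 83.5 CPM in sham cortex. These groups were also separate, but Gfap did not pass (log2 fold change 0.75 ± 0.27, adjusted p = 0.108; 0.000384 with surgery day as a block in the 6 libraries alone). The list's count was 2 without ipsilateral replicate 2, 3 without sham replicate 1, 3 without sham replicate 2 and 3 without sham replicate 3. It was 8 with surgery day as a block over all libraries, 15 with that block in the 6 libraries alone and 13 with DESeq2.

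Of 17 homeostatic astrocyte genes tested, 1 rose and none fell (median -0.10), near the 5.03% rising and 1.09% falling over all tested genes. The riser was Sox9, a glial transcription factor, with 16.3, 12.2 and 12.2 CPM in ipsilateral 6 h cortex, against 6.51, 5.85 and 6.53 CPM in sham cortex (log2 fold change 1.11 ± 0.20, adjusted p = 0.000975). The glutamate transporters Slc1a2 (log2 fold change -0.09 ± 0.14) and Slc1a3 (-0.01 ± 0.14) and glutamine synthetase, Glul (-0.10 ± 0.11), did not pass, with adjusted p of 0.76, 0.986 and 0.654.

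Falls were fewer and smaller, and several of the strongest were in microglial genes. Of 15 homeostatic microglia genes tested 4 fell and none rose, against 1.09% falling over all tested genes, with a median log2 fold change of -0.21. Tmem119, a membrane protein of resident microglia at chr5:113793729-113800516 on the minus strand, had 5.67, 5.82 and 8.21 CPM in ipsilateral 6 h cortex, against 14.2, 12.7 and 16.3 CPM in sham cortex. Tmem119 changed by -1.13 ± 0.23 on the log2 scale (adjusted p = 0.00298). P2ry12, the purine receptor that guides microglial processes, had 9.52, 6.24 and 6.6 CPM in ipsilateral 6 h cortex, against 15.1, 10.3 and 19 CPM in sham cortex. P2ry12 changed by -0.99 ± 0.29 on the log2 scale (adjusted p = 0.0414). Selplg, the selectin ligand PSGL-1, had 7.27, 6.55 and 8.67 CPM in ipsilateral 6 h cortex, against 12.1, 13.4 and 16.6 CPM in sham cortex. Selplg changed by -0.90 ± 0.22 on the log2 scale (adjusted p = 0.0145). The groups were separate in all 3 genes, which was a condition for naming them. P2ry13, a related purine receptor, also fell (log2 fold change -0.79 ± 0.21, adjusted p = 0.022). Single libraries decided some of these calls, which were lost for P2ry12 without ipsilateral replicates 2 and 3 and sham replicates 1 and 3 (adjusted p = 0.11 to 0.199), Selplg without ipsilateral replicates 1 and 2 and sham replicate 3 (adjusted p = 0.0599 to 0.105) and P2ry13 without ipsilateral replicates 1 and 3 and sham replicates 2 and 3 (adjusted p = 0.0567 to 0.107). Without a filter on low counts P2ry12 had an adjusted p of 0.0541. The number of microglial falls was 2 without ipsilateral replicate 1, 2 without ipsilateral replicate 2, 2 without ipsilateral replicate 3 and 1 without sham replicate 3.

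Other microglial genes did not pass: Cx3cr1, the fractalkine receptor (log2 fold change -0.51 ± 0.28) and Aif1, which encodes Iba1 (0.04 ± 0.24), with adjusted p of 0.308 and 0.946. In bulk tissue, fewer cells of a type and less of an RNA per cell cannot be told apart. P2ry12 and P2ry13 overlap Med12l on the other strand. The strand setting of the counting is not given in the sources used here, so their reads cannot be told apart from those of Med12l. The same limit holds for Jun (with Junos), Ppp1r15a (Tulp2), Scn2b (Gm10684) and Slc1a2 (Gm13872).

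Further falls were in precursor, endothelial and other genes. Gpr17, a receptor of committed oligodendrocyte precursors, had 14.5, 15.2 and 19.7 CPM in ipsilateral 6 h cortex, against 24.5, 28.1 and 42.1 CPM in sham cortex. Gpr17 changed by -0.94 ± 0.21 on the log2 scale (adjusted p = 0.00604). Pdgfra, the growth factor receptor of precursors, had 51.2, 38.8 and 54 CPM in ipsilateral 6 h cortex, against 59.8, 67.1 and 74.8 CPM in sham cortex. Pdgfra changed by -0.48 ± 0.14 on the log2 scale (adjusted p = 0.0418). Both were lower in every ipsilateral library, a condition for naming Gpr17 but not Pdgfra. They were the 2 falls among 17 tested oligodendrocyte and precursor markers, none of which rose (median -0.22), beside 1.09% falling over all tested genes. The calls were lost for Gpr17 without ipsilateral replicate 2 and sham replicate 3 (adjusted p = 0.0518 to 0.0671) and Pdgfra without ipsilateral replicates 1 and 2 and sham replicates 1, 2 and 3 (adjusted p = 0.0506 to 0.275). The number of precursor falls was 1 without ipsilateral replicate 1, 0 without ipsilateral replicate 2, 1 without sham replicate 1, 1 without sham replicate 2 and 0 without sham replicate 3. Gpr17 overlaps Lims2 on the other strand, with the same limit.

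Slco1a4, an organic anion transporter of brain endothelium at chr6:141805440-141856199 on the minus strand, had 12.1, 14 and 13.3 CPM in ipsilateral 6 h cortex, against 22.3, 19.9 and 29.9 CPM in sham cortex (log2 fold change -0.87 ± 0.20, adjusted p = 0.00733; lost without sham replicate 3, with an adjusted p of 0.0622). Cdh5, the cadherin of endothelial junctions, had 15.5, 21.6 and 17.1 CPM in ipsilateral 6 h cortex, against 6.72, 6.49 and 7.67 CPM in sham cortex. Cdh5 rose by 1.38 ± 0.37 on the log2 scale (adjusted p = 0.0309), a call lost without ipsilateral replicates 1 and 2 and sham replicates 1, 2 and 3 (adjusted p = 0.0532 to 0.145). They were the single fall and the single rise among 16 tested endothelial and barrier genes (median 0.02), beside 1.09% falling and 5.03% rising over all tested genes. The single rise is near that overall share. Each was separate between the groups, a condition for naming Slco1a4 but not Cdh5. The remaining large falls were Zfp759, a zinc finger gene (log2 fold change -1.04 ± 0.18, adjusted p = 0.000585), Hist1h2bb, a histone H2B gene (log2 fold change -0.99 ± 0.23, adjusted p = 0.00803), Mettl7a1 (log2 fold change -0.92 ± 0.17, adjusted p = 0.0012), Cxx1c (log2 fold change -0.86 ± 0.17, adjusted p = 0.00213) and mt-Tp, the mitochondrial proline transfer RNA (log2 fold change -0.94 ± 0.26, adjusted p = 0.0314). The calls were lost for Hist1h2bb without ipsilateral replicate 2 (adjusted p = 0.0701) and mt-Tp without ipsilateral replicates 1 and 2 and sham replicates 1 and 3 (adjusted p = 0.0599 to 0.152), and mt-Tp had an adjusted p of 0.0614 with surgery day as a block in the 6 libraries alone.

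Few neuronal genes passed the test. None of 25 cortical neuron markers (median log2 fold change -0.19) and none of 15 glutamate receptor subunits (median -0.18) passed, against a median of -0.01 over all tested genes. With surgery day as a block over all libraries, 3 neuron markers fell, among them Lamp5 (adjusted p = 0.0379) and Pvalb (0.0329). Among 28 channel genes for voltage-gated potassium and sodium currents, 3 fell and none rose (median -0.11), beside 1.09% falling over all tested genes. Kcnq3, a subunit of the M-current channel, had 87.3, 83.1 and 85.1 CPM in ipsilateral 6 h cortex, against 107, 109 and 116 CPM in sham cortex. Kcnq3 changed by -0.38 ± 0.09 on the log2 scale (adjusted p = 0.0093). Scn2b, a sodium channel beta subunit, had 236, 215 and 249 CPM in ipsilateral 6 h cortex, against 298, 335 and 304 CPM in sham cortex. Scn2b changed by -0.42 ± 0.12 on the log2 scale (adjusted p = 0.032). Scn8a, the sodium channel Nav1.6, had 533, 458 and 463 CPM in ipsilateral 6 h cortex, against 597, 579 and 661 CPM in sham cortex. Scn8a changed by -0.34 ± 0.10 on the log2 scale (adjusted p = 0.0467). Each was lower in all 3 ipsilateral libraries. The calls were lost for Kcnq3 without ipsilateral replicate 2 and sham replicate 3 (adjusted p = 0.0569 to 0.0609), Scn2b without ipsilateral replicates 1 and 2 and sham replicates 1, 2 and 3 (adjusted p = 0.0618 to 0.193) and Scn8a without ipsilateral replicates 2 and 3 and sham replicates 1, 2 and 3 (adjusted p = 0.0814 to 0.223). Scn8a also failed with DESeq2's size factors (0.0523) and without a filter on low counts (0.0648). The number of channel falls was 0 without ipsilateral replicate 2, 1 without sham replicate 1, 1 without sham replicate 2 and 0 without sham replicate 3.

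Among hypoxia-inducible and glycolysis genes, targets of the HIF factors, 4 of 20 rose and none fell (median -0.01). For this list and the next, the share over all tested genes was 5.03% rising and 1.09% falling. P4ha2, a collagen prolyl hydroxylase, had 16.8, 16.5 and 14.6 CPM in ipsilateral 6 h cortex, against 9.49, 10.1 and 9.51 CPM in sham cortex. P4ha2 rose by 0.72 ± 0.15 on the log2 scale (adjusted p = 0.00239). Adm, the vasodilator adrenomedullin, had 2.52, 2.95 and 3.44 CPM in ipsilateral 6 h cortex, against 1.32, 1.18 and 1.34 CPM in sham cortex. Adm rose by 1.21 ± 0.27 on the log2 scale (adjusted p = 0.00516). Both were separate. Ddit4, an inhibitor of mTOR, rose by 0.74 ± 0.19 on the log2 scale (adjusted p = 0.0192; lost without ipsilateral replicate 2 and sham replicates 2 and 3, with an adjusted p of 0.0806 to 0.109), and the list's count was 2 without ipsilateral replicate 2 and 2 without sham replicate 2. Of 17 Nrf2 targets and metallothioneins 3 rose and none fell (median 0.06), Hmox1 with the values given above, Txnrd1, thioredoxin reductase, with 54.9, 62.9 and 52.9 CPM in ipsilateral 6 h cortex, against 39.4, 37.4 and 38 CPM in sham cortex (log2 fold change 0.57 ± 0.12, adjusted p = 0.00267), and Srxn1, sulfiredoxin (adjusted p = 0.0481). Srxn1 no longer passed without any 1 of the 6 libraries, which left a count of 2, or without a filter on low counts (0.0651).

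Clock genes rose at 6 of 18 tested, and none fell (median 0.34), beside 5.03% rising and 1.09% falling over all tested genes. Nfil3, a repressor of D-box promoters, had 28.1, 27.1 and 18.2 CPM in ipsilateral 6 h cortex, against 7.83, 6.62 and 4.87 CPM in sham cortex. Nfil3 rose by 1.92 ± 0.25 on the log2 scale (adjusted p = 1.67e-05). Arntl, the BMAL1 activator, had 40.2, 46.1 and 31.8 CPM in ipsilateral 6 h cortex, against 19.6, 23.1 and 21.1 CPM in sham cortex. Arntl rose by 0.89 ± 0.15 on the log2 scale (adjusted p = 0.000471). Bhlhe41, a repressor of the BMAL1 complex, had 57.6, 68.5 and 45.2 CPM in ipsilateral 6 h cortex, against 38.3, 30.4 and 32.5 CPM in sham cortex. Bhlhe41 rose by 0.76 ± 0.16 on the log2 scale (adjusted p = 0.00329). These genes were separate between the groups, whereas Per1, Per2 and Dbp did not pass (adjusted p = 0.117, 0.284 and 0.199). The labels do not give the clock hour at which sham and ipsilateral tissue was taken. The list's count was 3 without sham replicate 2. None of 11 glucocorticoid-responsive genes passed (median -0.16). In a fit of the 6 libraries alone Tsc22d3 fell (adjusted p = 0.00155) and Sgk1 rose (0.00659). Of 16 cholesterol synthesis genes 1 fell and none rose (median -0.16), beside 1.09% falling over all tested genes. Fdps, farnesyl diphosphate synthase, had 36.1, 34.2 and 41.1 CPM in ipsilateral 6 h cortex, against 54.8, 54.8 and 48.3 CPM in sham cortex (log2 fold change -0.50 ± 0.13, adjusted p = 0.0164; lost without ipsilateral replicates 1 and 2 and sham replicates 1 and 2, with an adjusted p of 0.0691 to 0.115).

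**Figure D3:**
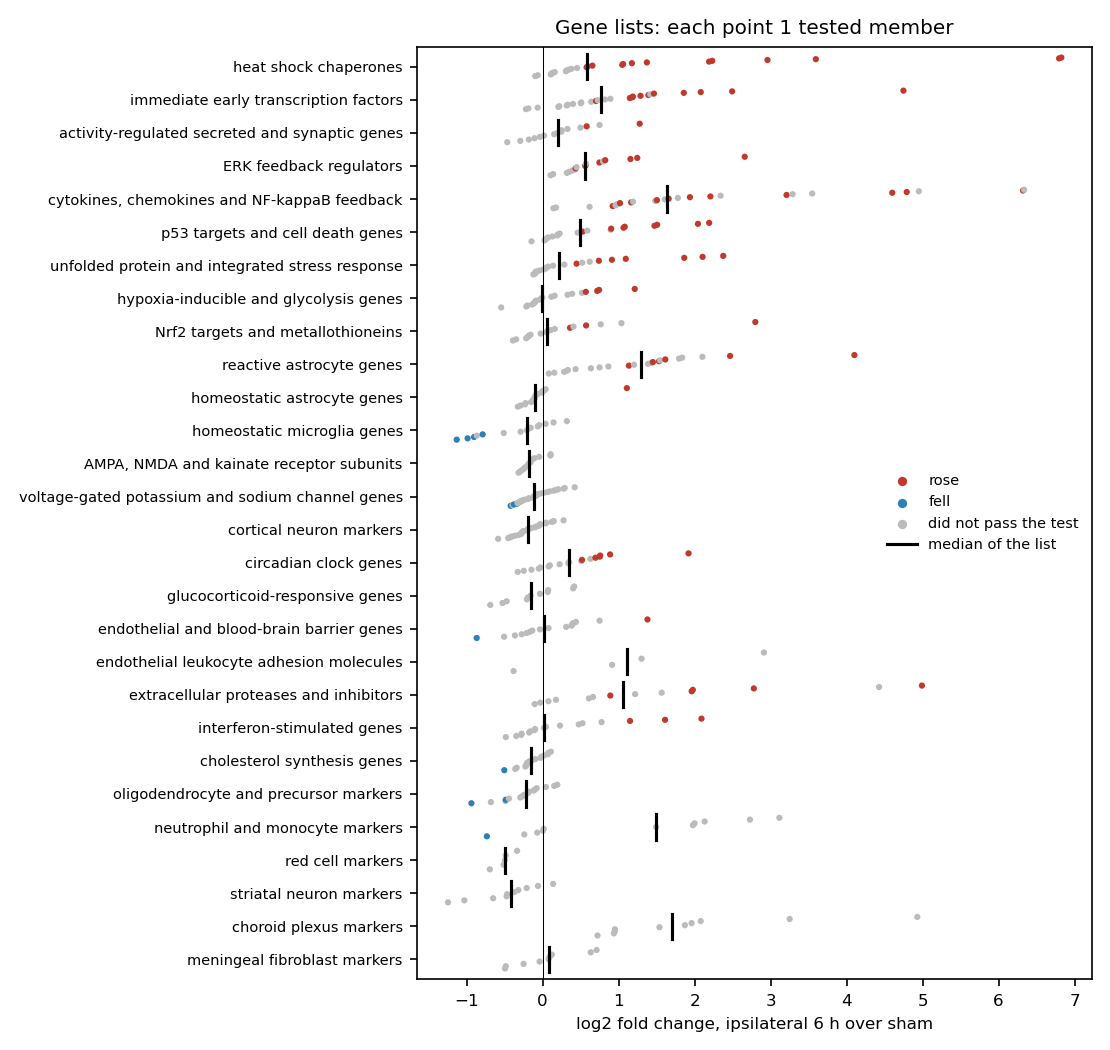
The log2 fold change of ipsilateral 6 h over sham cortex for every tested member of 28 gene lists, 1 row per list, with the list median marked. Red and blue points rose or fell at an adjusted p under 0.05 and grey points did not pass: the chaperone list holds 13 rises, and the microglia list holds 4 falls.

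Markers of tissue next to the cortex were counted to see what the dissection held. Summed choroid plexus markers were 355, 13.9 and 15.7 CPM in ipsilateral 6 h cortex, against 8.41, 16.4 and 9.59 CPM in sham cortex. Ipsilateral replicate 1 stood apart, as did contralateral replicate 1 of the same surgery day (432, 9.41 and 7.51 CPM in the 3 contralateral 6 h libraries). No choroid plexus gene passed in the joint fit without a block. Its main marker Ttr, transthyretin, had 319, 4.54 and 2.87 CPM in ipsilateral 6 h cortex, against 1.76, 6.55 and 2.27 CPM in sham cortex. Striatal neuron markers summed to 263, 249 and 387 CPM in ipsilateral 6 h cortex and 378, 479.9 and 307 CPM in sham cortex, and meningeal fibroblast markers to 71.5, 94.9 and 96.5 CPM in ipsilateral 6 h cortex and 96.2, 80.6 and 77.4 CPM in sham cortex, both overlapping and with no member called. The part of these differences in the results above was not tested beyond leaving out each library.

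Contralateral cortex at 6 h comes from mice with the same surgery and time, and the labels do not say whether both sides came from the same mice. Of 18087 genes 1445 differed between ipsilateral and contralateral 6 h cortex, 7.99%, with 1058 rises (5.85%) and 387 falls (2.14%). That count was 811 and 516 without ipsilateral replicates 1 and 2, 912, 823 and 756 without contralateral replicates 1, 2 and 3, and 2987 with surgery day as a block in the 6 libraries alone. Between contralateral 6 h and sham cortex 6 genes fell and none rose, 0.0332%. There 778 genes had an unadjusted p under 0.05 in edgeR, DESeq2 called 22, edgeR called 0 to 3 without single libraries, and 48 passed with surgery day as a block in the 6 libraries alone. The first comparison shares the ipsilateral libraries with that against sham and the second shares the sham libraries, so the values stand side by side only.

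The 6 genes that fell in contralateral against sham cortex were Arc, Egr1, Dusp6, Spry4, Rnd3 and 1700016P03Rik, and Arc, Egr1, Dusp6 and Spry4 report neuronal activity or ERK signalling. Arc, which drives AMPA receptor internalisation, had 394, 489 and 292 CPM in ipsilateral 6 h cortex, 42.4, 67.5 and 52.1 CPM in contralateral 6 h cortex and 273, 190.2 and 236 CPM in sham cortex. Egr1, an activity-induced zinc finger factor, had 170.1, 153 and 158 CPM in ipsilateral 6 h cortex, 24.7, 33.7 and 33.1 CPM in contralateral 6 h cortex and 122, 77.2 and 91.8 CPM in sham cortex. Contralateral cortex was lowest and apart from both other groups for each gene. Arc was higher in ipsilateral than in contralateral cortex (log2 fold change 2.86 ± 0.37, adjusted p = 7.9e-05) and lower in contralateral than in sham cortex (log2 fold change -2.11 ± 0.36, adjusted p = 0.0414), while ipsilateral against sham did not pass (log2 fold change 0.75 ± 0.35, adjusted p = 0.228). Egr1 had the same 3 outcomes, with log2 fold changes of 2.40 ± 0.27 (adjusted p = 6.72e-06) over contralateral, -1.67 ± 0.26 (adjusted p = 0.0225) for contralateral over sham and 0.73 ± 0.26 (adjusted p = 0.0988) for ipsilateral over sham.

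Npas4, a factor that neurons induce on calcium entry, had 88.1, 59.7 and 66.3 CPM in ipsilateral 6 h cortex, 4.38, 3.61 and 4.1 CPM in contralateral 6 h cortex and 19.3, 15.5 and 15.8 CPM in sham cortex. Fos had 10.6, 6.99 and 5.53 CPM in contralateral 6 h cortex. Both were higher in ipsilateral than in contralateral cortex (Npas4, log2 fold change 4.14 ± 0.56, adjusted p = 0.000128; Fos, log2 fold change 3.998 ± 0.59, adjusted p = 0.000326), and neither contralateral difference from sham passed (Npas4, log2 fold change -2.06 ± 0.53, adjusted p = 0.481; Fos, log2 fold change -2.14 ± 0.56, adjusted p = 0.515). Those 2 contralateral falls did pass with surgery day as a block in the 6 libraries alone (adjusted p = 1.05e-05 for Npas4 and 6.21e-06 for Fos) and with DESeq2 (0.0322 and 0.0342), and Npas4 also in the 6 libraries without the block (1.59e-06). Dusp6, a cytoplasmic ERK phosphatase, had 140.3, 127 and 91 CPM in ipsilateral 6 h cortex, 41.5, 41.2 and 38.4 CPM in contralateral 6 h cortex and 91.1, 69.8 and 81 CPM in sham cortex. Spry4, an ERK pathway inhibitor, had 20.8, 25.2 and 20.4 CPM in ipsilateral 6 h cortex, 8.76, 8.62 and 8.76 CPM in contralateral 6 h cortex and 16.5, 15.2 and 17.5 CPM in sham cortex. For Spry4 the order ipsilateral, sham, contralateral held without overlap in all 3 groups. Both exceeded contralateral cortex (Dusp6, log2 fold change 1.57 ± 0.18, adjusted p = 1.74e-06; Spry4, log2 fold change 1.35 ± 0.13, adjusted p = 1.72e-07) and, by less, sham cortex (Dusp6, log2 fold change 0.57 ± 0.17, adjusted p = 0.0491; Spry4, log2 fold change 0.43 ± 0.13, adjusted p = 0.0428). The calls against sham were lost for Dusp6 without ipsilateral replicates 1 and 2 and sham replicates 1, 2 and 3 (adjusted p = 0.0638 to 0.226) and Spry4 without ipsilateral replicates 1 and 2 and sham replicates 1, 2 and 3 (adjusted p = 0.0688 to 0.276), and the Dusp6 call also with surgery day as a block over all libraries (0.0533). Without a filter on low counts Dusp6 had an adjusted p of 0.0533 and Spry4 of 0.0570. The contralateral falls from sham were -0.998 ± 0.18 for Dusp6 (adjusted p = 0.0262) and -0.91 ± 0.13 for Spry4 (adjusted p = 0.00313).

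By list, 21 of 26 immediate early factors rose against contralateral cortex and 11 against sham, 13 and 8 of 17 ERK feedback regulators, and 6 and 2 of 15 activity-regulated genes. The ipsilateral rises over contralateral cortex of Arc, Egr1, Fos, Npas4, Dusp6, Spry4 and Rnd3 were kept without each of the 6 libraries in turn. The contralateral falls from sham were less stable. Arc, Rnd3 and 1700016P03Rik lost the call without each of the 6 libraries (adjusted p = 0.0991 to 0.513), Egr1 and Dusp6 kept it without sham replicate 2 alone (up to 0.163 and 0.216 otherwise), and Spry4 lost it without sham replicate 3 or contralateral replicate 2 (up to 0.0619). In the 6 libraries alone, Arc and Egr1 both had an adjusted p of 0.0593, and with surgery day as a block there Arc had 0.268 and Egr1 0.284. Arc also missed without a filter on low counts (0.0589), and Egr1 when contralateral 3 h replicate 1 and ipsilateral 24 h replicate 1, which stand apart from their groups, were left out of the joint fit (0.0624). Among the falls, Tmem119 (log2 fold change -1.02 ± 0.23, adjusted p = 0.0059) and Selplg (adjusted p = 0.00785) were also lower than in contralateral cortex, both lost without ipsilateral replicate 2 (0.0553 and 0.071), whereas P2ry12, Gpr17 and Slco1a4 did not pass there (adjusted p = 0.27, 0.503 and 0.129). Gpr17 had 17.8, 21.3 and 19.96 CPM in contralateral 6 h cortex, overlapping the ipsilateral range.

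**Figure D4:**
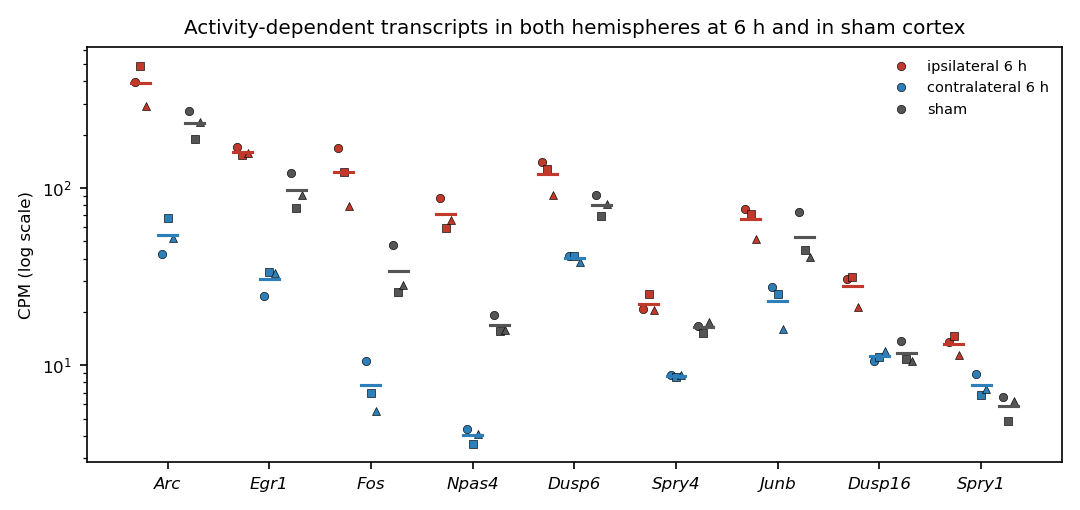
Level in CPM (vertical axis, log scale) of 9 activity and ERK feedback genes in ipsilateral 6 h, contralateral 6 h and sham cortex, left to right. Circles, squares and triangles are replicates 1, 2 and 3 and bars are means: Arc and Egr1 are lowest in the contralateral libraries, and their ipsilateral levels lie nearer to those in sham cortex.

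Set between its neighbours in time, ipsilateral 6 h cortex differed from 3 h in 50 genes (0.276%, with 49 rises, 0.271%, and 1 fall, 0.00553%), and 12 h differed from 6 h in 64 genes (0.354%, with 13 rises, 0.0719%, and 51 falls, 0.282%). Both tests use the 6 h libraries. In separate tests against sham, 44 genes passed at 3 h (0.243%, 0.227% up and 0.0166% down) and 1864 at 12 h (10.3%, 6.58% up and 3.72% down). The 50 became 12, 3 and 124 without 6 h replicates 1, 2 and 3, and 3, 21 and 14 without 3 h replicates 1, 2 and 3. The 64 became 9 and 18 without 6 h replicates 1 and 2, and 7, 10 and 126 without 12 h replicates 1, 2 and 3. With surgery day as a block in the compared libraries alone they were 97 and 124.

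Some genes had their highest mean at 6 h among these 4 groups. Fos had 47.5, 25.8 and 28.4 CPM in sham cortex, 58.1, 98.7 and 79.4 CPM at 3 h, 168, 123 and 78.9 CPM at 6 h and 11.5, 8.68 and 32.8 CPM at 12 h. It was lower at 12 h than at 6 h (log2 fold change -2.80 ± 0.56, adjusted p = 0.0382). Nfil3 had 7.83, 6.62 and 4.87 CPM in sham cortex, 7.75, 13.8 and 12.7 CPM at 3 h, 28.1, 27.1 and 18.2 CPM at 6 h and 11.1, 10.9 and 13.1 CPM at 12 h. Nfil3 was higher at 6 h than at 3 h (log2 fold change 1.09 ± 0.24, adjusted p = 0.0379) and lower at 12 h than at 6 h (log2 fold change -1.06 ± 0.24, adjusted p = 0.0439). Angptl4, an inhibitor of lipoprotein lipase, had 3.96, 5.46 and 3.94 CPM in sham cortex, 4.54, 6.84 and 8.31 CPM at 3 h, 11.8, 13.3 and 11.1 CPM at 6 h and 2.89, 3.56 and 5.57 CPM at 12 h, and it was lower at 12 h than at 6 h (log2 fold change -1.59 ± 0.26, adjusted p = 0.00244). Hspa1a averaged its highest level at 6 h, with 3.03, 4.41 and 3.44 CPM in sham cortex, 117, 211 and 191 CPM at 3 h, 421, 449.7 and 342 CPM at 6 h and 209, 83.6 and 251 CPM at 12 h. Its differences did not pass, either from 3 h to 6 h (log2 fold change 1.22 ± 0.31, adjusted p = 0.111) or from 6 h to 12 h (log2 fold change -1.16 ± 0.31, adjusted p = 0.119). The Fos call was lost without ipsilateral 6 h replicate 1 or 2 or 12 h replicate 1 or 2 (up to 0.228) and the Angptl4 call without 12 h replicate 1 (0.0682). The Nfil3 calls were lost without 6 h replicate 1 or 2, or without each of the 3 h replicates (up to 0.324) or 12 h replicate 1 or 2 (up to 0.234). In the compared libraries alone, Fos at 12 h against 6 h had an adjusted p of 0.251, and 0.397 with surgery day as a block. Nfil3 at 6 h against 3 h had 0.0929 there, 0.183 with that block and 0.0519 without a filter on low counts.

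Other genes followed other courses. Hmox1 had 3.52, 2.41 and 2.92 CPM in sham cortex, 5.96, 9.32 and 7.07 CPM at 3 h, 21.1, 24.1 and 16.4 CPM at 6 h and 52.2, 23.1 and 30.2 CPM at 12 h, and it was higher at 6 h than at 3 h (log2 fold change 1.46 ± 0.29, adjusted p = 0.0276). Its further difference at 12 h against 6 h did not pass (log2 fold change 0.78 ± 0.28, adjusted p = 0.265). Dnajb1 had 36.1, 35.5 and 31.8 CPM in sham cortex, 86.3, 139 and 129 CPM at 3 h, 315, 289 and 199.9 CPM at 6 h and 251, 139.9 and 206 CPM at 12 h, with a rise between 3 h and 6 h (log2 fold change 1.18 ± 0.24, adjusted p = 0.0273). Both calls were lost without 6 h replicate 1 or 2 or each of the 3 h replicates (up to 0.229 for Hmox1 and 0.216 for Dnajb1). In the compared libraries alone the Dnajb1 call was also lost, with an adjusted p of 0.0994, and 0.285 with surgery day as a block. Adcy7, an adenylyl cyclase, had 9.77, 9.99 and 11.4 CPM in sham cortex, 11, 11.6 and 8.69 CPM at 3 h, 14.6, 17.1 and 13.9 CPM at 6 h and 38.5, 32.6 and 26.6 CPM at 12 h, and it was higher at 12 h than at 6 h (log2 fold change 1.10 ± 0.15, adjusted p = 0.000198) whichever of these 6 libraries was left out. Slco1a4 had 22.3, 19.9 and 29.9 CPM in sham cortex, 30.0, 21.3 and 21.9 CPM at 3 h, 12.1, 14 and 13.3 CPM at 6 h and 31.7, 39.9 and 30.5 CPM at 12 h. It was lowest at 6 h, with a fall from 3 h (log2 fold change -0.89 ± 0.20, adjusted p = 0.0423; 0.0534 with surgery day as a block over all libraries) and a rise to 12 h (log2 fold change 1.37 ± 0.20, adjusted p = 0.00086). The fall was lost without each of its 6 libraries in turn (up to 0.349), and the rise was kept in every such fit. In direct tests between times, 2 of 24 chaperones rose at 6 h against 3 h and none passed at 12 h against 6 h. Against sham, 6 chaperones rose at 3 h, 13 at 6 h and 19 at 12 h, with list medians of 0.18, 0.59 and 0.91. Of 16 cholesterol synthesis genes, none passed at 6 h against 3 h, and 1 fell at 12 h against 6 h. Against sham, none of these fell at 3 h, 1 at 6 h and 10 at 12 h.

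**Figure D5:**
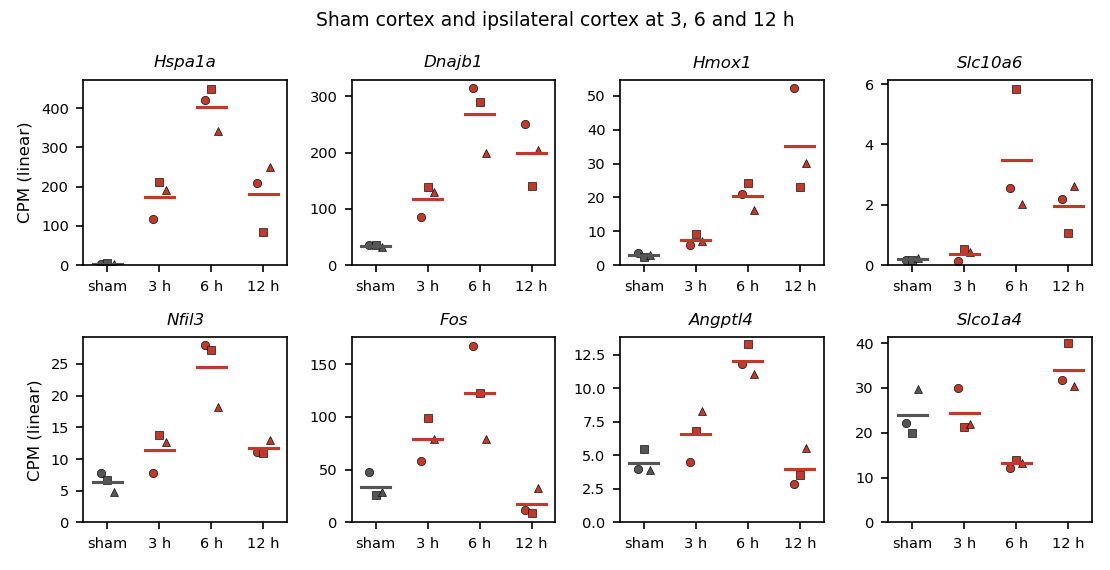
Level in CPM (vertical axis, linear, from 0) of 8 genes in sham cortex and in ipsilateral cortex at 3 h, 6 h and 12 h of reperfusion, left to right. Circles, squares and triangles are replicates 1, 2 and 3 and bars are means: Fos, Nfil3 and Angptl4 average highest at 6 h, Hmox1 highest at 12 h, and Slco1a4 lowest at 6 h.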

How the data were processed

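The values are read counts per gene that the authors deposited as 1 table of 22340 genes and 27 libraries. Per the submitters' processing notes, the aligner was STAR 2.5.0a, the build mm10 and the counting tool featureCounts 1.4.3-p1, with edgeR listed but no version. For the annotation and the strand setting, nothing is given in the sources used here. Reads of overlapping genes on opposite strands may have been assigned to either or dropped.

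From these counts, filterByExpr (minimum count 10, minimum total count 15) left 18087 genes and removed 4253 holding 0.0116% of counts. Counts were scaled by TMM, and edgeR 4.0.16 in R 4.3.3 fitted the 27 libraries jointly by quasi-likelihood, with 1 mean per group and robust dispersions (biological coefficient of variation 0.175, 18 residual degrees of freedom). Adjusted p-values are Benjamini-Hochberg over all tested genes, with a threshold of 0.05. CPM are TMM-scaled, SE is the log2 fold change divided by the root of F, and the fit was tested on simulated data. In the 6 libraries, totals of 34226854 to 44959072 reads set the counting precision of low genes.

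Named genes were the top 14 rises and top 10 falls by fold among those that passed the test, reached a group mean of 5 CPM or more and had groups that did not overlap, up to 3 members per list by smallest p, the 3 largest rises and 3 largest falls between times under the same conditions, and Hspa1a, Fos, Gfap, Slc1a2, Slc1a3 and Glul. Some are not reported here, and other list members named were chosen after their values were seen. The comparison, its members, the lists and the naming rule were chosen with earlier results of these data known. Elane, Ly6g and Hmgcs1 were not analysed here.

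Replicate numbers mark surgery days per the labels, so the numbers pair libraries of different groups. Deviations from the group means of the same-numbered ipsilateral 6 h and sham libraries correlated at 0.0417, -0.0106 and -0.0197. Whether replicates are separate animals is not spelled out beyond the surgery day. DESeq2 1.42.0, other scalings and filters, the replicate block, fits of the compared libraries alone and leaving out each library were alternatives. Promoters came from RefSeq GRCm38.p6 and gene positions from GENCODE M21, matched by symbol.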

Additional observations from a re-analysis of the deposited data

Results flagged for a closer look

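The values here mark genes named above whose ipsilateral level differed between successive times in a direct test, which is a difference between 2 groups of the same tissue. All are log2 fold changes ± SE, later time over earlier time, in edgeR's quasi-likelihood test.

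Between 3 h and 6 h of reperfusion, the chaperone gene Dnajb1 differed by 1.18 ± 0.24 (adjusted p = 0.0273) and Hmox1 by 1.46 ± 0.29 (adjusted p = 0.0276). The NF-kappaB regulator Nfkbiz differed by 1.05 ± 0.18 (adjusted p = 0.0086), the steroid transporter gene Slc10a6 by 3.14 ± 0.53 (adjusted p = 0.0086) and the D-box repressor Nfil3 by 1.09 ± 0.24 (adjusted p = 0.0379). Chac1, of the integrated stress response, differed by 1.38 ± 0.27 (adjusted p = 0.0206). The homeobox gene Six4 differed by 1.46 ± 0.28 (adjusted p = 0.016) and 1600002K03Rik by 1.56 ± 0.33 (adjusted p = 0.0278). The single fall was Slco1a4 at -0.89 ± 0.20 (adjusted p = 0.0423). Of these 9, Nfkbiz and Slc10a6 lost the call without ipsilateral 6 h replicate 2 or 3 h replicate 1, and Six4 without 6 h replicates 1 and 2 or 3 h replicates 1 and 3. The other 6 lost it without at least 5 of the 6 libraries. With surgery day as a block in the compared libraries alone, Dnajb1 (adjusted p = 0.285), Six4 (0.0772) and Nfil3 (0.183) lost the call, and with that block over all libraries Slco1a4 did (0.0534). Without the block, the compared libraries alone gave 0.0994 for Dnajb1 and 0.0929 for Nfil3.

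Between 6 h and 12 h, Slco1a4 rose by 1.37 ± 0.20 (adjusted p = 0.00086), Adcy7 by 1.10 ± 0.15 (adjusted p = 0.000198), Shmt2, the mitochondrial serine hydroxymethyltransferase, by 1.04 ± 0.17 (adjusted p = 0.00371) and Trib3 by 1.68 ± 0.38 (adjusted p = 0.0439). Falls were found for Fos, -2.80 ± 0.56 (adjusted p = 0.0382), 8430408G22Rik, -2.56 ± 0.52 (adjusted p = 0.0345), Angptl4, -1.59 ± 0.26 (adjusted p = 0.00244), Spry1, -0.98 ± 0.18 (adjusted p = 0.00892), and Nfil3, -1.06 ± 0.24 (adjusted p = 0.0439). The kinase gene Sgk1 fell with -0.80 ± 0.14 (adjusted p = 0.00767) and Plat with -0.73 ± 0.15 (adjusted p = 0.0222). Slco1a4 and Adcy7 passed whichever of the 6 libraries was left out, and Angptl4 lost the call without 12 h replicate 1 alone. Shmt2 and Sgk1 lost it without ipsilateral 6 h replicate 1 or 12 h replicate 1 or 2. Fos, Spry1, Nfil3 and Plat lost it without ipsilateral 6 h replicate 1 or 2 or 12 h replicate 1 or 2, and 8430408G22Rik and Trib3 also without 6 h replicate 3. With surgery day as a block in the compared libraries alone, Fos (adjusted p = 0.397), Spry1 (0.0511) and Trib3 (0.0581) lost the call. Without the block, those libraries gave 0.109 for Shmt2, 0.251 for Fos, 0.0531 for 8430408G22Rik and 0.0573 for Spry1. Shmt2 overlaps Ndufa4l2 on the other strand, so their reads cannot be told apart.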

How the results depend on the processing

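No called result reversed its direction under the alternatives run, and the uncalled differences from sham near 0 of Slc1a3, Slc1a2 and Shmt2 changed sign in some of them. The count for ipsilateral 6 h against sham, 1106, was 1523 with DESeq2, 1099 with DESeq2's size factors in edgeR, 1030 without a filter and 1061 with a CPM filter. It was 1944 without 2 libraries of other groups that stand apart (contralateral 3 h replicate 1 and ipsilateral 24 h replicate 1, chosen after seeing the data) and 2117 in a fit of the 6 libraries alone. Leaving out single libraries gave 423 to 1216. With the replicate block it was 1280 over all libraries and 1871 over the 6 alone.

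Against contralateral cortex, 1445 became 2445 in the compared libraries alone, 2987 with the replicate block there, 2455 without the 2 libraries and 516 to 1643 with single libraries left out. For contralateral against sham, 6 became 27, 48 with the block there, 22 with DESeq2 and 0 to 3 with single libraries left out. For 6 h against 3 h, 50 became 145, 97 with the block there, 206 with DESeq2, 203 without the 2 libraries and 3 to 124 with single libraries left out. For 12 h against 6 h, 64 became 41, 124 with the block there, 237 with DESeq2, 360 without the 2 libraries and 7 to 126 with single libraries left out. The cause of these shifts was not tested.

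Over lists, 721 counts under an alternative stayed within 1.5 times and 119 moved further. Among values of named genes 2091 kept their side of the threshold, 251 lost the call and 62 gained it. Beyond the changes given beside the results, the replicate block over all libraries let Sult1a1 of the glucocorticoid list (adjusted p = 0.0417) and the choroid plexus gene Slc4a5 (0.0289) pass. More calls were gained in a fit of the 6 libraries alone. Among them were the choroid plexus genes Slc4a5 (adjusted p = 0.00188) and Aqp1 (0.00653) and the meningeal gene Col3a1 (0.0408). Pecam1 of endothelium (0.000835), Mog of oligodendrocytes (0.0117) and the neuron marker Slc17a7 (0.0400) also passed there. With 3 libraries a group, low genes such as the cytokines rest on few reads.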

Other observations

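The following gene families were singled out after their values were seen, and their counts are descriptions. Nuclear genes for subunits of the respiratory chain and ATP synthase, which make most of the ATP of neurons, were lower by small amounts across the family. Of 77 tested 8 fell and none rose in ipsilateral 6 h against sham cortex, and all 77 log2 fold changes were negative, with a median of -0.26. Over all tested genes 1.09% fell and 5.03% rose, and the median was -0.01. The 8 were Atp5k, Atp5o, Cox6b1, Cox7a2, Ndufa4, Ndufb11, Uqcr11 and Uqcrh. Uqcr11, a complex III subunit, averaged 39.3 ± 7.67 CPM in ipsilateral 6 h cortex and 58.5 ± 2.22 CPM in sham cortex (SD, n = 3 each, adjusted p = 0.0199 in edgeR). Cox6b1, a complex IV subunit, averaged 71.8 ± 7.18 CPM in ipsilateral 6 h cortex and 97.0 ± 5.27 CPM in sham cortex (adjusted p = 0.0348). Leaving out any of the 6 libraries but ipsilateral replicate 3 ended the Uqcr11 call (adjusted p = 0.0521 to 0.162) and the Cox6b1 call (0.0561 to 0.203). The family median was -0.23 against contralateral 6 h cortex, where 3 fell, and -0.04 for contralateral 6 h against sham cortex, where 57 of the 77 values were negative. Against sham it was -0.11 at 3 h and -0.27 at 12 h. Genes of cytosolic ribosomal proteins had a median of -0.05 over 83 tested, of which 60 were negative, with 1 rise (Rpl12, with 11.6 ± 2.14 CPM in ipsilateral 6 h cortex and 6.28 ± 0.643 CPM in sham cortex, adjusted p = 0.000889) and no fall.

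Among 330 tested genes with the symbol stem Zfp, most of which encode zinc finger proteins, 12 rose and 7 fell, with a median of 0.01, beside 5.03% rising and 1.09% falling over all tested genes. Zfp516 averaged 51.2 ± 5.24 CPM in ipsilateral 6 h cortex and 16.9 ± 0.588 CPM in sham cortex (adjusted p = 6.01e-06). Zfp408 averaged 20.6 ± 3.01 CPM in ipsilateral 6 h cortex and 7.68 ± 1.04 CPM in sham cortex (adjusted p = 0.000254). Most of the 7 that fell stood at lower levels, among them Zfp759, given above, and Zfp429 with 0.445 ± 0.0596 CPM in ipsilateral 6 h cortex and 1.13 ± 0.196 CPM in sham cortex (adjusted p = 0.0332). The Zfp429 call was lost without each of the 6 libraries in turn (0.0536 to 0.133).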
